A study of Homo sapiens with 4 samples.

Results

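The EGF receptor family and its ligands were followed here through 9 genes: the receptors EGFR, ERBB2 and ERBB3, the ligands AREG, EREG, TGFA, HBEGF and BTC, and ERRFI1, an intracellular inhibitor of the receptors. The genes were picked by name from the 58735 genes of the expression table, and each matched 1 row. RNA-seq was performed on 4 libraries, 1 per condition, from a pair of human colorectal cancer lines, HCT116 and LOVO, each as adherent cells and as spheroids, to find what set spheroids enriched for stem-like traits apart from attached cells. All 4 libraries carry the genotype label WT. The adherent cells were kept in RPMI-1640 with fetal bovine serum and received no drug. The spheroids were formed in non-adherent dishes in serum-free DMEM/F12 with B27, N2, basic FGF and EGF, and oxaliplatin was present according to the paper. For the spheroids the sample labels give a treatment of 1 mg/ml and name no agent. The paper states its oxaliplatin concentration in µg/ml and not in mg/ml, so the dose is uncertain. Growth form, medium, added EGF and drug therefore changed together and cannot be told apart.

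EGFR, ERBB2 and ERBB3 are receptor tyrosine kinases of the cell surface that pair with each other when a ligand binds, and they pass the signal to the RAS-ERK and PI3K-AKT pathways. AREG, EREG, TGFA, HBEGF and BTC are made as membrane-bound precursors and are shed from the cell by proteases, so that a cell can stimulate itself and its neighbours. In colorectal cancer this axis is known as the target of antibodies against EGFR, and high AREG and EREG mRNA are known as markers of tumours that depend on it.

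Levels are given as the deposited FPKM, the fragments of a gene divided by its length in kilobases and scaled to 1000000 of a library size. That size was not the plain sum of the reads on genes, as given below. FPKM is per length, so levels of different genes may be set side by side. The length used is that of all exons of a gene over all its transcripts, and the transcripts expressed can be shorter. Ratios between genes, and the order of genes at similar levels, are therefore approximate. The reads behind each FPKM were recovered from the deposited values. Intervals of log2 ratios are 95% exact (Clopper-Pearson) intervals that compare libraries, not conditions. Intervals of a single FPKM are 95% exact Poisson intervals of 1 library. Both kinds cover counting error only. With 1 library per condition there is no replicate spread, and no test was made within a line. The reads on genes ranged from 15483569 to 20429147 per library. Mitochondrial genes took 6.77% of the reads in adherent HCT116 cells, 11.1% in HCT116 spheroids and 3.65% and 3.97% in the LOVO libraries, and the part of this in the results was not tested. A difference between conditions is given as the log2 difference of FPKM + 1, a scale on which weakly expressed genes appear to change less than they do, and the comparison took in the 14429 genes whose mean FPKM over the libraries reached 1. Of the 9 genes, 8 were among these, and BTC was not, with a mean FPKM of 0.686.

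The libraries labelled LOVO lacked several defining markers of colorectal epithelium. The FPKM of EPCAM, an epithelial adhesion molecule, was 85.6 and 79.3 in adherent and spheroid HCT116, and 0.930 and 1.499 in the corresponding LOVO libraries. CDH1, the adhesion molecule of epithelial junctions, had 3920 and 3227 reads in the HCT116 libraries, and 13 and 1 in the LOVO libraries. CDX2, a transcription factor of intestinal epithelium, had 323 and 216 reads in HCT116 and 0 in both LOVO libraries, where a count of 0 allows up to 3 reads. The 11 epithelial markers summed to 1774 and 1303 FPKM in HCT116 and to 341 and 193 in LOVO, where KRT8 and KRT18 made up most of the sum. The 8 that passed the filter were all lower in LOVO in both forms. TJP1 stood at 14.3 and 6.33 FPKM against 19.9 and 15.1 in HCT116, the smallest log2 difference of these in adherent cells. CDH1, CDX2 and KRT20 passed only through their HCT116 values, so for them being lower in LOVO follows from the filter. The share of all genes lower in LOVO was not computed. CDX1 and VIL1 had 0 reads in LOVO, but were also low in HCT116, with 1 and 0 reads for CDX1 and 6 and 11 for VIL1. LGALS4 had 3 to 5 reads in each library. The 5 fibroblast markers summed to 5.59 and 15.7 FPKM in HCT116 and to 53.2 and 67.7 in LOVO. LUM, a matrix proteoglycan, stood at 31.4 and 50.4 FPKM and DCN, another one, at 10.4 and 9.97 in LOVO, against 0 or 1 read in HCT116, whereas COL1A2 had 0 or 1 read in all 4 libraries. The 4 leukocyte markers summed to between 0.250 and 1.97 FPKM per library. The 3 endothelial markers summed to between 0.254 and 7.84 FPKM, the highest sum lying in LOVO spheroids, where PECAM1 stood at 6.35 against 0.0359 in adherent LOVO cells. The name LOVO below stands for the libraries that carry this label, and HCT116 is given separately throughout, so that each HCT116 change stands without them. The part of these markers in the differences between the lines was not tested.

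Among the receptors, EGFR had the highest FPKM in each of the 4 libraries, and its level differed more between the lines than between the growth forms. EGFR (ENSG00000146648, chromosome 7 of GRCh38, 55019021 to 55211628, plus strand) stood at 18.8 FPKM in adherent and 15.3 in spheroid HCT116, and at 84.0 in adherent and 49.2 in spheroid LOVO, from 4799, 3222, 18859 and 12399 reads. Both LOVO libraries lay above both HCT116 libraries, and in each line the spheroids lay below the adherent cells. In bulk RNA, fewer cells that express a gene and less of its RNA per cell cannot be told apart. The log2 ratio of the forms, spheroids over adherent cells, was -0.30 in HCT116, with an interval from -0.36 to -0.23, and -0.77 in LOVO, with an interval from -0.80 to -0.74. In adherent LOVO cells EGFR reached percentile 96.4 of the genes compared, against percentile 83.5 in adherent HCT116 cells. Of the 12521 exonic bases of EGFR, 186 overlap exons of EGFR-AS1 on the opposite strand, and the strand setting of the counting is not given in the sources used here.

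ERBB2 and ERBB3 were lower than EGFR and varied less. ERBB2, the partner receptor that binds no known ligand of its own (ENSG00000141736, chromosome 17, 39687914 to 39730426, plus strand), stood at 8.37 FPKM in adherent and 9.70 in spheroid HCT116, and at 5.91 in adherent and 4.33 in spheroid LOVO. Its spheroids were the higher form in HCT116 (log2 ratio 0.21, interval 0.12 to 0.31) and the lower form in LOVO (log2 ratio -0.45, interval -0.58 to -0.32). ERBB3, which binds neuregulins and has little kinase activity (ENSG00000065361, chromosome 12, 56076799 to 56103505, plus strand), stood at 5.63, 4.50, 2.44 and 3.39 FPKM in the same order. Its direction was the other way round, with a log2 ratio of -0.32 in HCT116 (interval -0.46 to -0.18) and 0.47 in LOVO (interval 0.29 to 0.66). The ratio of the highest to the lowest library was 5.48 for EGFR, 2.24 for ERBB2 and 2.30 for ERBB3. EGFR made up 57.3% and 51.9% of the summed FPKM of the 3 receptors in adherent HCT116 cells and HCT116 spheroids, and 91.0% and 86.4% in LOVO. Transcripts of ERBB2 and ERBB3 share stretches of 50 bases or more with those of 18 and 52 other genes, and how such reads were counted is not given in the sources used here.

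**Figure D1:**
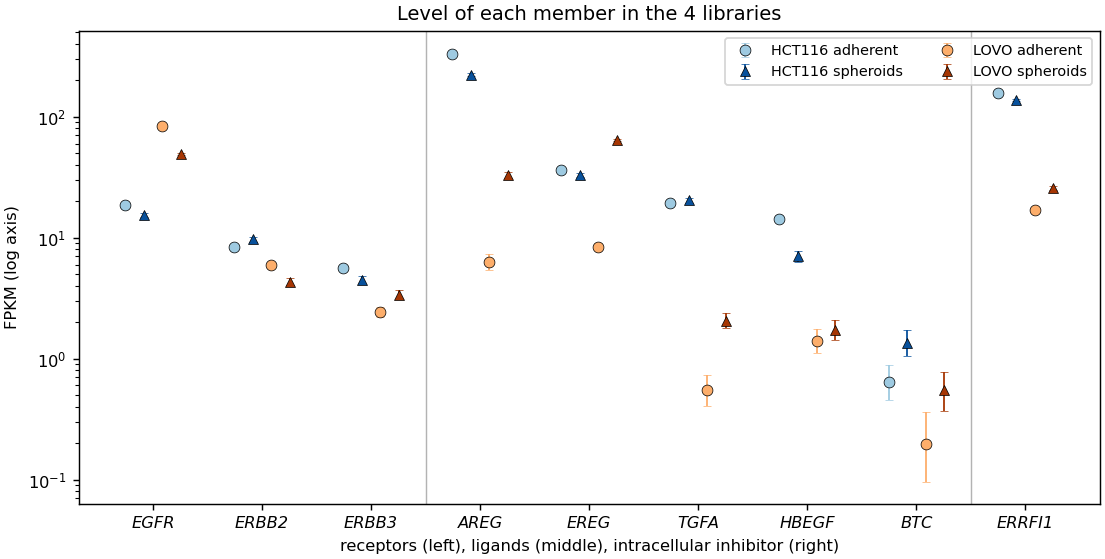
FPKM of the 9 genes on a log axis in the 4 libraries, with receptors on the left, ligands in the middle and ERRFI1 on the right. Circles are adherent cells, triangles are spheroids, blue is HCT116, orange and brown are LOVO, and bars are 95% counting intervals of 1 library each; AREG spans 6.33 to 332 FPKM, and EREG in LOVO spheroids, at 63.9, is the highest of its 4 values.

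The ligands share the EGF-like domain, the part that binds the receptor, held by disulfide bonds between its cysteines. The coding sequence of that stretch is shown for the 5 ligands from the GENCODE 29 transcripts, because it is the feature that makes them a family while their levels differed. Each stretch is 108 bases or 36 codons long, and the 6 cysteine codons are in capitals. The numbers of codons between neighbouring cysteines were 7, 4, 10, 1 and 8 in all 5 genes. The stretch was found with a cysteine pattern that set the 7, 1 and 8 in advance and allowed narrow ranges for the others. In each gene the stretch begins in exon 3 and ends in exon 4.
AREG: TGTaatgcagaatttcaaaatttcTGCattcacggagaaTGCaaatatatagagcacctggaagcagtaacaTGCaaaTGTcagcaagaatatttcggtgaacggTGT
EREG: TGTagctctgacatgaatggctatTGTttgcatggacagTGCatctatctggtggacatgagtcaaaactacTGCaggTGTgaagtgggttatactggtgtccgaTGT
TGFA: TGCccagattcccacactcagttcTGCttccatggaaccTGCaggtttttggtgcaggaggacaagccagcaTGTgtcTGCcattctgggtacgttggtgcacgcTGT
HBEGF: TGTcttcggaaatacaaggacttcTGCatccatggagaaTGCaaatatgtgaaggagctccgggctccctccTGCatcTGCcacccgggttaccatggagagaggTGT
BTC: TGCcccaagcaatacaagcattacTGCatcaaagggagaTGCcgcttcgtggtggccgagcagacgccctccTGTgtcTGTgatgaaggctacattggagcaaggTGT
With their introns, these stretches lie on GRCh38 at chr4:74449172-74450410 on the plus strand for AREG, chr4:74381061-74382675 on the plus strand for EREG, chr2:70456458-70465692 on the minus strand for TGFA, chr5:140335997-140342711 on the minus strand for HBEGF and chr4:74750689-74755935 on the minus strand for BTC.

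AREG, amphiregulin, was by far the most abundant ligand of HCT116 and was far lower in LOVO. AREG (ENSG00000109321, chromosome 4, 74445134 to 74455009, plus strand) stood at 332 FPKM in adherent and 223 in spheroid HCT116, and at 6.33 in adherent and 33.0 in spheroid LOVO, from 11157, 6162, 187 and 1093 reads. It reached percentile 99.4 of the genes compared in both HCT116 libraries, and percentiles 52.0 and 91.3 in adherent and spheroid LOVO. Between the growth forms it was 1.49-fold lower in HCT116 spheroids (log2 ratio -0.58, interval -0.62 to -0.53) and 5.21-fold higher in LOVO spheroids (log2 ratio 2.38, interval 2.16 to 2.61). HCT116 lay above LOVO in both forms, by 52.5-fold in adherent cells and 6.75-fold in spheroids.

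EREG, epiregulin, was the only one of the 5 ligands whose order between the lines turned round with the growth form. EREG (ENSG00000124882, chromosome 4, 74365143 to 74388751, plus strand) stood at 36.1 FPKM in adherent and 32.9 in spheroid HCT116, and at 8.44 in adherent and 63.9 in spheroid LOVO, from 4212, 3156, 865 and 7355 reads. In HCT116 the libraries were close, with a log2 ratio of -0.14 and an interval from -0.20 to -0.07. In LOVO the spheroids were 7.58-fold higher, a log2 ratio of 2.92 with an interval from 2.82 to 3.03. Adherent HCT116 cells had 4.28-fold more EREG than adherent LOVO cells, and LOVO spheroids had 1.95-fold more than HCT116 spheroids. Transcripts of EREG share stretches of 50 bases or more with those of 16 other genes.

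TGFA and HBEGF were far more abundant in HCT116 than in LOVO. TGFA, transforming growth factor alpha (ENSG00000163235, chromosome 2, 70447280 to 70554193, minus strand), stood at 19.4 and 20.3 FPKM in adherent HCT116 cells and HCT116 spheroids, from 1962 and 1694 reads. In the LOVO libraries it stood at 0.551 and 2.06, from 49 and 206 reads. The HCT116 libraries did not differ beyond counting error (log2 ratio 0.07, interval -0.03 to 0.16), and TGFA was 3.75-fold higher in LOVO spheroids than in adherent LOVO cells (log2 ratio 1.91, interval 1.45 to 2.39). HBEGF, the heparin-binding ligand (ENSG00000113070, chromosome 5, 140332843 to 140346631, minus strand), stood at 14.3 FPKM in adherent and 7.001 in spheroid HCT116, and at 1.40 in adherent and 1.73 in spheroid LOVO. It was 2.05-fold lower in HCT116 spheroids than in adherent HCT116 cells (log2 ratio -1.03, interval -1.21 to -0.85). In LOVO, with 76 and 105 reads, no difference was detectable at this depth (log2 ratio 0.30, interval -0.14 to 0.75).

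BTC, betacellulin (ENSG00000174808, chromosome 4, 74744759 to 74794686, minus strand), was the least abundant of the 9 genes in each of the 4 libraries. Its FPKM was 0.645 in adherent and 1.35 in spheroid HCT116, and 0.198 in adherent and 0.547 in spheroid LOVO, from 37, 64, 10 and 31 reads. The spheroids held more BTC in each line, with a log2 ratio of 1.07 (interval 0.46 to 1.69) in HCT116 and 1.47 (interval 0.40 to 2.66) in LOVO. The FPKM intervals of adherent HCT116 cells and LOVO spheroids overlapped, running from 0.454 to 0.889 and from 0.372 to 0.777.

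Summed over the 5 ligands, the FPKM came to 402.7 and 284.1 in adherent and spheroid HCT116 and to 16.9 and 101.2 in adherent and spheroid LOVO. The line with less EGFR thus held more ligand mRNA, and the ligand sum over the FPKM of EGFR was 21.4 and 18.5 in HCT116 and 0.201 and 2.06 in LOVO. The sum leaves out EPGN, a further ligand described below, at 0.0541 and 0.328 FPKM in HCT116 and 4.46 and 16.2 in LOVO. With EPGN the LOVO sums would be higher and the LOVO shares of the 5 ligands lower. The make-up of the sum also differed. AREG gave 82.5% and 78.3% of it in HCT116 and 37.4% and 32.6% in LOVO, while EREG gave 8.98% and 11.6% in HCT116 and 49.9% and 63.2% in LOVO. The ratio of AREG to EREG was 9.19 and 6.77 in HCT116 and 0.75 and 0.516 in LOVO, so that it was lower in the spheroids of each line. These ratios and shares are the same under any scaling of a whole library, but they depend on the gene lengths used.

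**Figure D2:**
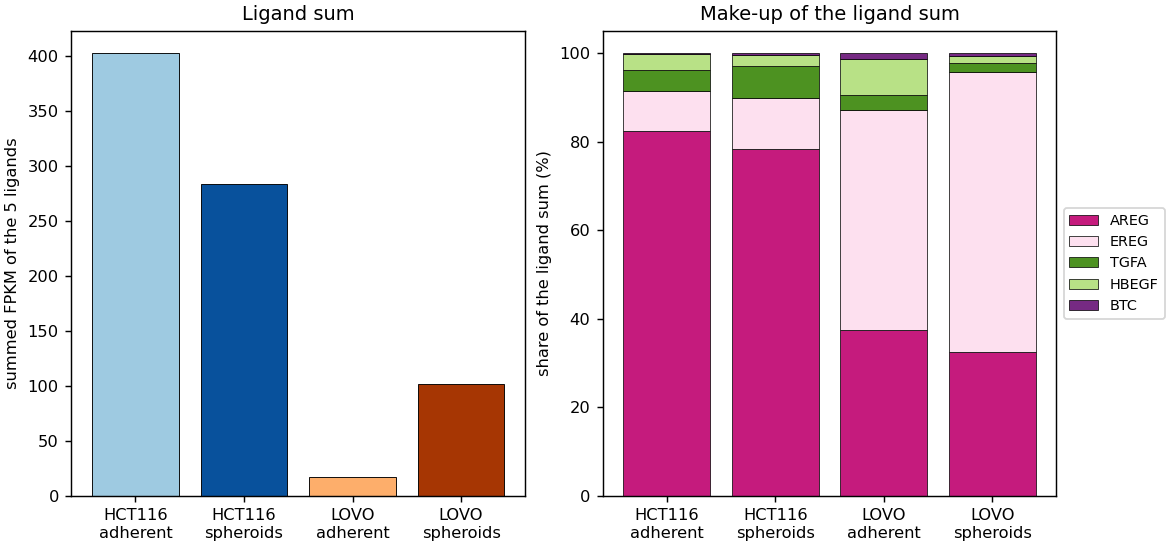
Left, summed FPKM of AREG, EREG, TGFA, HBEGF and BTC in each of the 4 libraries; right, the share of each ligand in that sum in percent. The sum is 402.7 in adherent HCT116 cells and 16.9 in adherent LOVO cells, and AREG is the largest share in HCT116 and EREG the largest in LOVO.

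ERRFI1, also called MIG6, binds the kinase domain of EGFR and ERBB2 and is itself induced by signalling of the receptors. ERRFI1 (ENSG00000116285, chromosome 1, 8004404 to 8026308, minus strand) stood at 156 FPKM in adherent and 138 in spheroid HCT116, and at 16.8 in adherent and 25.8 in spheroid LOVO. As with AREG and EREG, the spheroids were the lower form in HCT116 (log2 ratio -0.18, interval -0.22 to -0.14) and the higher form in LOVO (log2 ratio 0.62, interval 0.52 to 0.72). Its order over the 4 libraries, from adherent HCT116 cells down to adherent LOVO cells, was that of AREG. Of its 4186 exonic bases, 155 overlap an exon of a gene on the opposite strand.

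Read against all genes compared, the change between growth forms reached a log2 difference of 2 for 2 of the 8 genes, both in LOVO. The value of 2 is taken from the study's methods, where it was paired with a p-value threshold in edgeR. Here it was applied alone, to differences of log2(FPKM + 1). In HCT116, 0 of 8 were above 2, where 0.201% of the 14429 genes were, and 0 of 8 were below -2, where 0.506% were. At a threshold of 1 the counts in HCT116 were again 0 and 0, beside 2.19% of all genes above and 3.33% below, with HBEGF at -0.94 just short of it. In LOVO, AREG (log2 difference 2.21) and EREG (2.78) were above 2, against 1.81% of all genes, and 0 of 8 were below -2, against 0.943%. At a threshold of 1 the same 2 genes were above, against 8.57% of all genes, with TGFA at 0.98 just short of it, and 0 of 8 were below, against 7.85%. The median log2 difference of all genes was -0.03 in HCT116 and -0.06 in LOVO. AREG and EREG stood at percentiles 98.7 and 99.3 of the LOVO changes, and at percentiles 10.6 and 39.7 of the HCT116 changes.

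**Figure D3:**
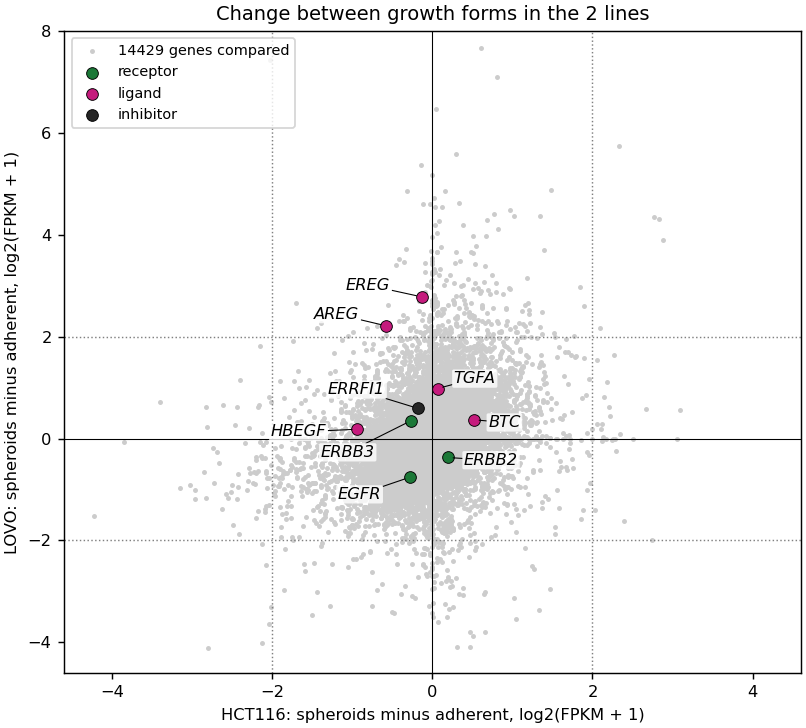
Log2 difference of FPKM + 1 between spheroids and adherent cells in HCT116 (horizontal) and in LOVO (vertical) for the 14429 genes compared (grey) and the 9 genes (coloured by role), with dotted lines at 2 and -2. EREG and AREG lie above 2 in LOVO, at 2.78 and 2.21, and left of 0 in HCT116, at -0.13 and -0.58.

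Both lines changed in the same direction for EGFR, lower in spheroids, and for TGFA and BTC, higher in spheroids, TGFA in HCT116 within counting error. For ERBB2, ERBB3, AREG, EREG, HBEGF and ERRFI1 the directions were opposite, HBEGF in LOVO within counting error. In a limma fit that took the lines as replicates, with the line as a term and 1 residual degree of freedom, so that the spread is that between the lines, 0 of 14429 genes (0%) passed at a Benjamini-Hochberg adjusted p of 0.05, and 1545 had an unadjusted p under it. For the 8 genes the limma adjusted p lay between 0.489 for EGFR, with a log2 difference of -0.52 (standard error 0.27), and 0.962 for ERBB3. EREG had a log2 difference of 1.32 (standard error 0.71, limma adjusted p = 0.496). No difference of any of the 8 genes common to both lines was thus detectable with these libraries.

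For EGFR, AREG, TGFA, HBEGF and ERRFI1 the lines differed by more than the growth forms did. The same held by less for ERBB2, at -0.44 and -1.004 between the lines and 0.19 and -0.37 between the forms. In adherent cells, EGFR was above 2 in LOVO against HCT116, with a log2 difference of 2.10, as were 5.26% of all genes. AREG (-5.51), TGFA (-3.72), HBEGF (-2.67) and ERRFI1 (-3.14) were below -2, as were 5.59% of all genes, and EREG, at -1.98, fell just short. In spheroids, 0 of 8 were above 2, against 5.68% of all genes, and EGFR stood at 1.62. AREG (-2.72), TGFA (-2.80) and ERRFI1 (-2.38) were below -2, against 4.71% of all genes, and HBEGF stood at -1.55. At a threshold of 1 in adherent cells, EGFR was above, as were 17.4% of all genes, and EREG joined the other 4 below, as were 16.4% of all genes. At the same threshold in spheroids, EGFR was above, as were 17.7% of all genes, and ERBB2 (-1.004), AREG, TGFA, HBEGF and ERRFI1 were below, as were 15% of all genes. For EGFR, AREG, TGFA, HBEGF and ERRFI1 the distance between the lines was thus smaller in spheroids than in adherent cells. ERBB3 did likewise, at -0.95 in adherent cells and -0.33 in spheroids. For ERBB2 the distance was larger in spheroids, and for EREG the order of the lines turned round. Adherent and spheroid comparisons use different libraries, but both rest on the same 2 labels.

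**Figure D4:**
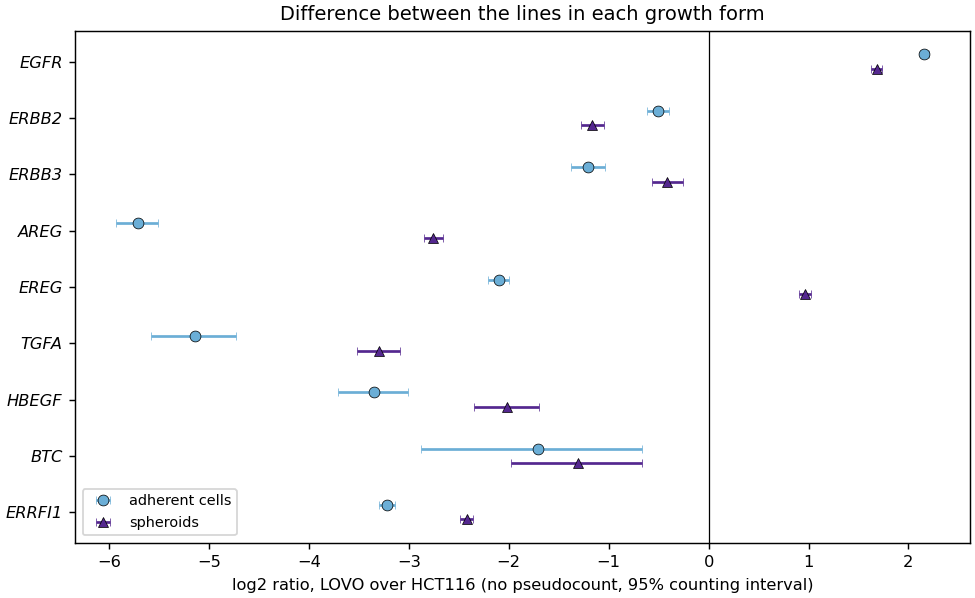
Log2 ratio of FPKM in LOVO over HCT116, with no pseudocount, for the 9 genes in adherent cells (circles) and spheroids (triangles), with 95% counting intervals of 1 library against 1. EGFR lies right of 0 in both forms, at 2.16 and 1.68, EREG lies at -2.10 in adherent cells and 0.96 in spheroids, and the other genes lie left of 0 in both.

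In the same limma fit, read for the line with the growth forms standing in for replicates, 3564 of 14429 genes (24.7%) had an adjusted p under 0.05, 1822 higher and 1742 lower in LOVO. Among the 8 genes there were 5. EGFR was higher in LOVO by a log2 difference of 1.86 (standard error 0.27, limma adjusted p = 0.0149). Lower in LOVO were TGFA (-3.26, standard error 0.32, limma adjusted p = 0.00751), ERRFI1 (-2.76, standard error 0.31, limma adjusted p = 0.00918), AREG (-4.11, standard error 0.69, limma adjusted p = 0.0204) and HBEGF (-2.11, standard error 0.36, limma adjusted p = 0.0205). ERBB2 (-0.72, limma adjusted p = 0.117), ERBB3 (-0.64, limma adjusted p = 0.166) and EREG (-0.52, standard error 0.71, limma adjusted p = 0.616) did not pass. The markers that set the LOVO libraries apart move with the same contrast, and cannot be told apart from the line. In simulated data, described below, the share of false limma calls for the growth form was above the threshold. The line term was not read there, and these adjusted p may also be too small.

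Of 7 further ligands and receptors of the family, 2 passed the filter, EPGN and NRG4, both only through their LOVO values. That the genes that passed were mainly found in LOVO is therefore not a separate result. EPGN, epigen, another EGFR ligand, had 2 and 10 reads in adherent and spheroid HCT116 and 145 and 593 in LOVO, and stood at 4.46 and 16.2 FPKM in LOVO (log2 ratio 1.87, interval 1.60 to 2.14). NRG4, a neuregulin that binds ERBB4, stood at 0.302, 0.189, 5.93 and 2.34 FPKM, lower in the spheroids of LOVO (log2 ratio -1.34, interval -1.57 to -1.12). EGF itself was at 0.160, 0.223, 0.0819 and 0.746 FPKM, from 20, 23, 9 and 92 reads. The receptor ERBB4 stayed at or below 0.451 FPKM, NRG1 at or below 0.641 and NRG2 at or below 0.888, and NRG3 had 0 reads in each library.

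EPGN, EREG, AREG and BTC lie in this order within 486214 bases of chromosome 4, the first 3 on the plus strand and BTC on the minus strand. The intervals between neighbours are 49835, 56382 and 289749 bases. In LOVO all 4 were higher in spheroids, with log2 differences of 1.66, 2.78, 2.21 and 0.37 along the chromosome, and in HCT116 these were 0.33, -0.13, -0.58 and 0.52. Since AREG and EREG were the genes past the threshold, the 250 bases before the start of each are shown, from RefSeq on GRCh38.p14, plus strand, with motif matches in capitals.
AREG, chr4:74444886-74445135: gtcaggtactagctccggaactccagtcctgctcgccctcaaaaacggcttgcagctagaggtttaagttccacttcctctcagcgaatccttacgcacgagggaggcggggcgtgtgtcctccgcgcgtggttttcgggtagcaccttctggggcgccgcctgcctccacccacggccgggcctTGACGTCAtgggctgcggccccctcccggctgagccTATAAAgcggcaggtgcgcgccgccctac
EREG, chr4:74364895-74365144: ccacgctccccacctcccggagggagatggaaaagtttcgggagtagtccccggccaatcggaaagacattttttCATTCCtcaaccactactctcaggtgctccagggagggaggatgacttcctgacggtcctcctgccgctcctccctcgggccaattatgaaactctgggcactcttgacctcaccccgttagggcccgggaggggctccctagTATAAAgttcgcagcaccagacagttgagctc
The motifs searched, on both strands, were TGACGTCA for the CRE, TGANTCA for AP-1, CCGGAAGT for ETS factors, TATAAA for the core promoter box of that name, called TATA box below, and GGAATG for TEAD factors, in windows that run to 50 bases after the start. In the AREG window a CRE begins at position -65 and a TATA box at -29 from the start. In the EREG window a TATA box begins at -32 and a TEAD motif, on the minus strand, at -175, and no matches overlap in either window. Over 35116 promoters of the same length, 1.85% held the CRE, 11.5% the TATA box, 14% the TEAD motif, 7.71% the AP-1 motif and 4.14% the ETS motif. Windows were available for 8 of the 9 genes, 10 windows in all, and AP-1 was matched for EGFR and ERBB2, ETS for ERBB2, and TATA box and TEAD also for EGFR. All 5 EGFR matches lay in a window inside the gene, at chr7:55109589-55109888. The EGFR window at the gene start, at chr7:55018767-55019066, held 0 matches. A match describes letters and not a bound site.

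Of the lists around the receptors, only that of ERK targets held genes past a log2 difference of 2 between the growth forms. Of all genes compared, 0.201% were above 2 and 0.506% below -2 in HCT116, and 1.81% and 0.943% in LOVO. With shares this low, a count of 0 in a short list is not a result about that list. Of 30 adaptors and effectors, which carry the signal inside the cell, 29 were compared and 0 were past 2 in either line, with a median log2 difference of -0.04 in HCT116 and -0.19 in LOVO. VAV2, an exchange factor, had the largest mean change over the lines, with -0.22 in HCT116 and -1.19 in LOVO. Of 22 genes for receptor downregulation and turnover, all compared, 0 were past 2, with medians of -0.07 and -0.11, and RNF41, a ubiquitin ligase of ERBB3, stood at -0.14 and -1.56 and EPS15, an endocytic adaptor, at -0.40 and -0.52. Of 9 genes for ligand shedding and trafficking, 8 were compared and 0 were past 2, with medians of 0.01 and 0.28. Among these, RHBDF1, an inactive rhomboid that serves the sheddase ADAM17, stood at 0.33 and 1.80, and CNIH1, a cargo receptor of TGFA family precursors, at -0.41 and -1.38.

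Of 20 targets and feedback regulators of ERK signalling, 9 were higher and 11 lower in HCT116 spheroids, with a median log2 difference of -0.07, and 0 were above 2 and 3 below -2, where 0.506% of all genes were. These 3 were the immediate early transcription factors EGR1 (195.6 to 26.7 FPKM, log2 difference -2.83), FOS (52.9 to 6.62, -2.82) and FOSL1 (50.4 to 11.5, -2.04). In LOVO, 16 were higher and 3 lower, with a median of 0.54 beside -0.06 for all genes, and EPHA4 had 0 reads in both libraries. Above 2 were IER3, an early response gene (29.5 to 882 FPKM, 4.85), and DUSP6, a phosphatase of ERK (0.867 to 6.78, 2.06), against 1.81% of all genes, and 7 of 20 were above 1, against 8.57% of all genes. Between the lines in adherent cells, 18 of 20 were lower in LOVO and 15 were below -1, against 16.4% of all genes, with a median of -1.97 beside 0.07 for all genes, and in spheroids the median was -0.74. IER3, like EREG, was higher in HCT116 among adherent cells (509.7 against 29.5 FPKM) and higher in LOVO among spheroids (882 against 409 FPKM).

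**Figure D5:**
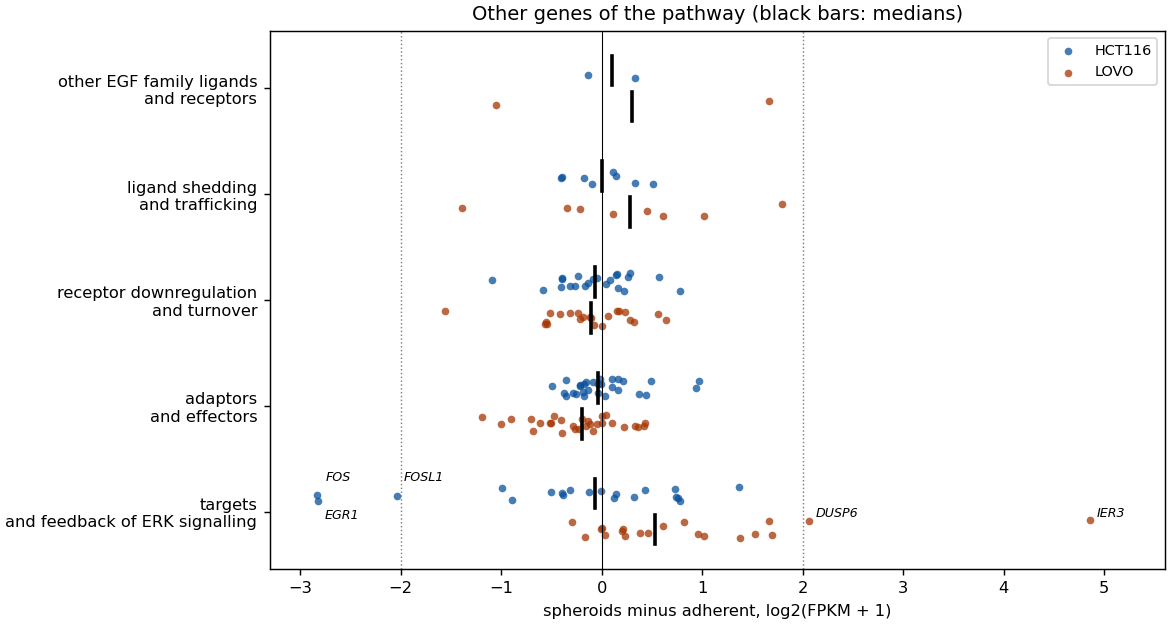
Log2 difference of FPKM + 1 between spheroids and adherent cells for the compared genes of 5 lists around the receptors, HCT116 in blue and LOVO in brown, 1 point per gene, with black bars at the medians and dotted lines at 2 and -2; vertical scatter has no meaning. The median of the ERK target list is -0.07 in HCT116 and 0.54 in LOVO, and the genes past 2 are named.

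By the Euclidean distance of log2 profiles centred on their means, over 4 libraries, the genes nearest to EGFR were DEGS1 (distance 0.07), COX7B (0.11) and TENT5A (0.13). DEGS1, a sphingolipid desaturase, stood at 16.2, 13.3, 71.2 and 40.2 FPKM, in the same order of libraries as EGFR. The genes nearest to AREG were FLNC (0.38), SEMA6B (0.53) and DUSP5 (0.63). FLNC, a filamin, stood at 56.4, 35.6, 0.499 and 3.80 FPKM, and DUSP5, an ERK phosphatase, at 162.8, 81.3, 4.01 and 15.2. With 4 points shared between libraries of unequal depth, these distances describe likeness of values and carry no test.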

How the data were processed

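RNA-seq was performed on 4 libraries of total RNA made with the SMARTER mRNA-Seq kit. The authors deposited 1 FPKM value per gene and library, and the reads were recovered as FPKM times gene length over each library's step, where 100% of the values above 0 came out whole within 0.1 of a read. The library sizes behind the FPKM were 0.998 and 1.09 times the reads on genes in adherent and spheroid HCT116, and 0.907 and 1.05 times in LOVO. TMM-style factors were close to these, at 0.987, 1.10, 0.905 and 1.02 in the same order. TMM-style scaling is therefore near the deposited scaling and a weak alternative to it. The paper names edgeR for the authors' differential expression; aligner, counter and strand setting are not given in the sources used here. The submitters' processing notes name the mouse builds GRCm38 and mm10, while all 58735 gene identifiers and the coordinates of the 9 genes are those of human GENCODE 29 on GRCh38. Per-sample columns left unused numbered 0.

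Differences are of log2(FPKM + 1), with a pseudocount of 1, over genes whose mean FPKM reached 1. Fits used limma 3.58.1 (trend, Benjamini-Hochberg) in R 4.3.3, and the rest used Python 3.11.15 with pandas 2.3.3, numpy 2.4.6, scipy 1.17.1 and matplotlib 3.10.9. On simulated data for spheroids against adherent cells over 14429 genes, limma recovered 188 of 200 genes changed by a log2 value of 2, with 35 false calls. There each changed gene was well covered by reads and changed alike in both lines. The lines need not change alike in the real data, so this recovery does not carry over to them. Alternatives were pseudocounts of 0.1 and 0.01, TPM, TMM-style scaling, centring on the median, a log2 threshold of 1, no filter and a mean FPKM of at least 5.

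The 9 genes and all lists were chosen with earlier results of these data known. Named were all 9 genes, further family genes above 3 reads in any library, and of each other list those past 2 in a line or else the 2 with the largest mean change. One gene that this rule names is not reported here. Further list genes are named where a count or marker check called for it. For EGFR and AREG, the 3 nearest profiles were named.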

Additional observations from a re-analysis of the deposited data

Results flagged for a closer look

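Of the 9 genes, 6 changed in opposite directions in the 2 lines between adherent cells and spheroids. Each direction rests on 1 library per condition, and the difference between the lines was not tested. The share of all genes compared with opposite directions was not computed, so this count is not a result about the 9 genes. On the log2(FPKM + 1) scale, the LOVO change minus the HCT116 change was -0.56 for ERBB2, 0.62 for ERBB3, 2.79 for AREG, 2.92 for EREG, 1.12 for HBEGF and 0.77 for ERRFI1. For HBEGF the LOVO change lay within counting error. EREG was also opposite when read the other way, since LOVO lay below HCT116 in adherent cells and above it in spheroids, and the difference of these differences is the same 2.92.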

How the results depend on the processing

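None of the 36 differences of the 9 genes changed sign with a pseudocount of 0.1 or 0.01, TPM, TMM-style scaling or centring on the median. At a log2 threshold of 1, for LOVO against HCT116 in spheroids, EGFR was the 1 gene above, in place of 0, and 5 genes in place of 3 were below. EREG in adherent cells, at -1.98, passed -2 with both other pseudocounts, TPM and centring, giving 5 genes in place of 4. TGFA in LOVO rose from 0.98 to 1.89 with a pseudocount of 0.01. In limma, LOVO against HCT116 gave 1887 calls at a mean FPKM of at least 5, where 8146 genes were tested, against 3564, and the same 5 of the 9 genes were called under each of the 5 alternatives, with adjusted p between 0.00423 and 0.0323. Spheroids against adherent cells gave 0 calls under each of them.

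Counts over all genes depend on the low genes. Above and below 2 in HCT116 spheroids there were 29 and 73 genes, against 128 and 184 with a pseudocount of 0.1, 221 and 237 with 0.01, and 80 and 129 with TPM. In LOVO these were 261 and 136, against 748 and 274, 950 and 319, and 661 and 187, so that TPM moved the share of higher calls from 65.7% to 77.9%. Between the lines, adherent cells gave 759 and 807, against 1304 and 1602, 1380 and 1684, and 1180 and 1365, and spheroids 819 and 679, against 1396 and 1255, 1483 and 1317, and 1489 and 979. TPM moved the median of all genes from -0.06 to 0.10 in LOVO and from 0.04 to 0.26 between the lines in spheroids. The line term of the limma fit pairs the growth forms within each line, and the labels carry no replicate number for a further block. Leaving out a library would leave limma no residual degrees of freedom. Depth limits BTC (10 to 64 reads) and, in LOVO, TGFA and HBEGF.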

Other observations

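Further values fall outside the comparisons of the receptors and were chosen after they were seen. KRT20, a keratin of differentiated intestinal epithelium, stood at 0.930 and 7.45 FPKM in adherent and spheroid HCT116, and had 1 and 2 reads in LOVO. KRT19, another epithelial keratin, was lower in the spheroids of both lines, at 808 and 543 FPKM in HCT116 and 14.9 and 4.85 in LOVO. COL1A1, a fibrillar collagen chain, was higher in the spheroids of HCT116 (5.51 and 15.5 FPKM) and lower in those of LOVO (9.89 and 6.10). PTPN1, a phosphatase that acts on EGFR, was 49.0 and 22.5 FPKM in HCT116 and 21.3 and 33.7 in LOVO. CBLC, a ubiquitin ligase of EGFR, stood at 29.3 and 31.2 FPKM in HCT116 and had 0 reads in both LOVO libraries. PIK3R1, a regulatory subunit of PI3K, was 2.83 and 6.34 FPKM in HCT116 and 0.383 and 0.743 in LOVO. Each value comes from 1 library, and no difference was tested.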
